A study of Bos taurus with 24 samples.

Results

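The response of the mammary miRNome to feed restriction was examined within each of 6 Montbéliarde (MONT) cows, which gave 12 of the 24 libraries listed for the series. These 12 libraries are all the MONT libraries, and both breeds together have 22 libraries with a column in the tables. Every cow was biopsied once in the control period (CONT, day 0, free access to a total mixed ration) and once at the end of restriction (REST, day 6). The groups were therefore MONT CONT (n = 6) and MONT REST (n = 6), with the same cows in both, and 5 Holstein (HOLS) cows treated in the same way served for the comparison of breeds. All cows were multiparous and in midlactation. The labels give the restricted allowance as 60% of the net energy for lactation calculated before restriction, and the methods of the paper give a lower share. The paper also states that the biopsy site alternated between the rear sides of the udder, so the period and the side cannot be told apart.

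MicroRNAs are short noncoding RNAs that are cut from hairpin precursors, loaded into Argonaute proteins and guided by their seed to messenger RNAs, which they destabilize or keep from being translated. Members of a family share a seed and can act on the same messengers, while members of a genomic cluster are made from the same primary transcript. In the mammary gland, secretory epithelial cells, myoepithelial cells, fibroblasts, vessels, adipocytes and leukocytes each express their own set of miRNAs, and a biopsy holds all of them. In such bulk samples, fewer cells of a type and less RNA per cell cannot be told apart. Counts of different miRNAs also depend on how well each is ligated to the adapters, so levels are compared here between libraries and not between miRNAs.

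The libraries held between 6087865 and 18913916 miRNA reads. REST libraries were deeper than CONT libraries by a ratio of 1.29 to 1.80 in 5 cows, and the ratio was 0.855 in cow 9615. Of 796 miRNAs listed, 759 had at least 1 read, and 349 passed the filter on low counts with all 6 cows and were tested. Those 349 miRNAs held 99.99% of the reads. The markers of mammary epithelium were present, and no entry of the marker lists of epithelium, smooth muscle, stroma, endothelium, leukocytes, red blood cells and skeletal muscle was at 0 in any library. The planned markers miR-203, miR-206 and miR-208 had no entry of that name and are not in these lists. Nor is miR-208b, with a mean normalized count of 0.754. The 10 most abundant miRNAs held 71.6% to 79.2% of the reads of a library, with miR-143, a miRNA of smooth muscle and myoepithelial cells, first on average.

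The 2 libraries of cow 9615 stood apart from those of the other 5 cows. Across the 349 miRNAs, the log2 changes from CONT to REST of any 2 of the other 5 cows correlated with r = 0.43 to 0.74 (10 pairs of cows), whereas the changes of cow 9615 correlated with those of each other cow with r = -0.68 to -0.34 (5 pairs). These correlations run across miRNAs, which are not independent replicates, and are given as a description. The sign of a cow's change matched the sign of the mean change of the other cows for 74.2% to 79.4% of miRNAs in the 5 cows and for 23.5% in cow 9615. The library labelled CONT of cow 9615 had a median r of 0.981 with the REST libraries and 0.961 with the CONT libraries of the other cows. Its library labelled REST was about as close to the CONT libraries (0.984) as to the REST libraries (0.983). By the same measure 8 of the 12 libraries were closest to their own period, and the other 4 were both libraries of cow 9615 and the CONT libraries of cows 1652 and 5663.

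**Figure D1:**
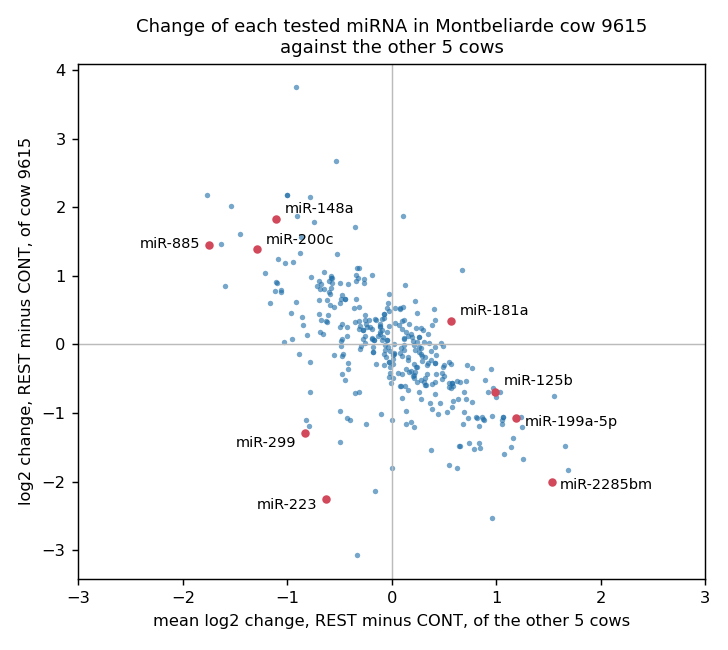
Log2 change from CONT to REST of each of 349 tested miRNAs in MONT cow 9615 (vertical axis) against the mean log2 change of the other 5 MONT cows (horizontal axis), with 9 miRNAs marked in red and named. Of the points, 76.5% lie where the 2 axes have opposite signs, and miR-181a, miR-223 and miR-299 lie where the signs are the same.

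The changes fitted in HOLS cows, which share no library with MONT, gave a second reference. Across 348 miRNAs tested in both breeds, the change of each of the 5 other MONT cows correlated with the HOLS log2 fold change with r = 0.45 to 0.63, and that of cow 9615 with r = -0.24. An opposite response of this cow and an exchange of its 2 libraries cannot be told apart from the counts, and the labels were kept. Each result is therefore given with all 6 cows and without cow 9615. Cow 9615 was set aside for its measured changes, so the p-values without it are not independent of that choice. Leaving out any one of the other 5 cows in place of it gave 0 miRNAs past the threshold.

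With all 6 cows and the cow as a block, no miRNA passed the threshold between REST and CONT. By the quasi-likelihood test of edgeR with p-values adjusted by Benjamini-Hochberg, 0 of 349 (0%) were at or under 0.05 and the lowest adjusted p was 0.292. At an unadjusted p under 0.05 there were 52 (14.9%), with 25 (7.16%) higher and 27 (7.74%) lower in REST. The count at an unadjusted p under 0.05 was 47 without the cow as a block, with 0 past the adjusted threshold. The limma-voom test gave 0 past the threshold and 62 at an unadjusted p under 0.05. DESeq2 with the cow as a block gave 1 of 349 (0.287%), miR-7, which was lower in REST by 0.80 on the log2 scale (adjusted p = 0.0316), and 77 at an unadjusted p under 0.05. The median absolute log2 fold change over the tested miRNAs was 0.29, and 10 miRNAs exceeded 1.

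The size of the response differed between cows. The median absolute log2 change per cow ran from 0.24 in cow 1640 to 0.66 in cow 2614. More than 1 log2 unit separated REST from CONT for 17 miRNAs in cow 1640 and for 109 in cow 2614. In cow 9615, this number was 80 and the median absolute change was 0.52, so that this cow's change was as large as that of the others and mostly of the other sign.

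Some miRNAs moved the same way in every cow, cow 9615 included. Of the 349 tested, 27 (7.74%) had the same direction in all 6 cows, with 9 higher and 18 lower in REST. By edgeR, none of them passed the adjusted threshold with all 6 cows, and 13 of them did without cow 9615. By DESeq2 with the cow as a block, miR-7 passed with all 6 cows. In the HOLS fit, 24 of the 27 had the same direction, and all 9 that passed the threshold in HOLS went the way they did in MONT. These counts include both miR-299 and miR-299-2, whose counts differed by at most 2 reads in a MONT library and are not separate observations. They also include the clustered miR-181a and miR-181b. Most tested miRNAs shared the HOLS direction in the MONT cows other than cow 9615. Of 348 tested in both breeds, the share was 69.8% (cow 1652) to 80.5% (cow 1613) in those cows and 33.0% in cow 9615. Whether the 24 of 27 exceed these shares was not tested.

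MiR-181a, a miRNA known for tuning lymphocyte signalling and abundant in this gland, had normalized counts of 104902, 209169 and 231729 (lowest, median and highest) in CONT and of 238226, 257998 and 338485 in REST. Every REST library was above every CONT library, which held for 1 of the 349 miRNAs (0.287%) in the 6 cows. The log2 fold change was 0.53 ± 0.15 (SE, n = 6 cows; edgeR adjusted p = 0.292), and the change per cow ran from 0.20 to 1.23, with 0.35 in cow 9615. The library labelled CONT of cow 2614 was the lowest, at 104902. Its clustered partner miR-181b changed by 0.06 to 1.03 per cow, with a log2 fold change of 0.36 ± 0.14 (adjusted p = 0.292). Both miRNAs passed the threshold in HOLS, where miR-181a rose by 0.45 and miR-181b by 0.46 on the log2 scale.

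MiR-25, a member of the cluster with miR-93 and miR-106b, was higher in REST in all 6 cows by 0.03 to 0.42 on the log2 scale, and miR-205, a marker of basal and myoepithelial cells, by 0.03 to 0.76. Their adjusted p was 0.292 each with all 6 cows. The other 5 miRNAs that were higher in every cow were miR-23a, miR-192, miR-194b, miR-425-5p and miR-2284x.

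MiR-299, a miRNA of the imprinted DLK1-DIO3 locus, had normalized counts of 35.2, 53.3 and 80.3 in CONT and of 20.1, 29.6 and 37.4 in REST. Its level was lower in REST in each of the 6 cows, and the ranges of the 2 groups overlapped between 35.2 and 37.4. The log2 fold change was -0.91 ± 0.22 (adjusted p = 0.292), with changes per cow from -1.43 to -0.23 and of -1.29 in cow 9615. The counts listed for miR-299-2 differed from those of miR-299 by at most 2 reads in a library, so both names describe the same reads. Other miRNAs of this locus with the same direction in each cow, none past the threshold, were miR-411c-3p (log2 fold change -0.59 ± 0.16), miR-495 (-0.66 ± 0.21) and miR-655 (-0.50 ± 0.21), with changes of -0.97, -1.43 and -1.07 in cow 9615.

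MiR-223, a miRNA of neutrophils and other myeloid cells, had normalized counts of 46.4, 109 and 674 in CONT and of 33.1, 64.7 and 140.8 in REST. Both the highest CONT and the highest REST value came from cow 9615, in which it was lower in REST by 2.25 on the log2 scale. The other miRNAs lower in each cow included miR-7 (log2 fold change -0.78 ± 0.20), which is known to act on the EGF receptor pathway, miR-483 of the IGF2 locus (-0.89 ± 0.23), miR-18a of the miR-17-92 cluster (-0.78 ± 0.24), miR-148b (-0.41 ± 0.14) and miR-210 (-0.16 ± 0.13), a miRNA induced by low oxygen. None of them passed the adjusted threshold by edgeR, and miR-7 passed it by DESeq2 with the cow as a block (adjusted p = 0.0316).

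**Figure D2:**
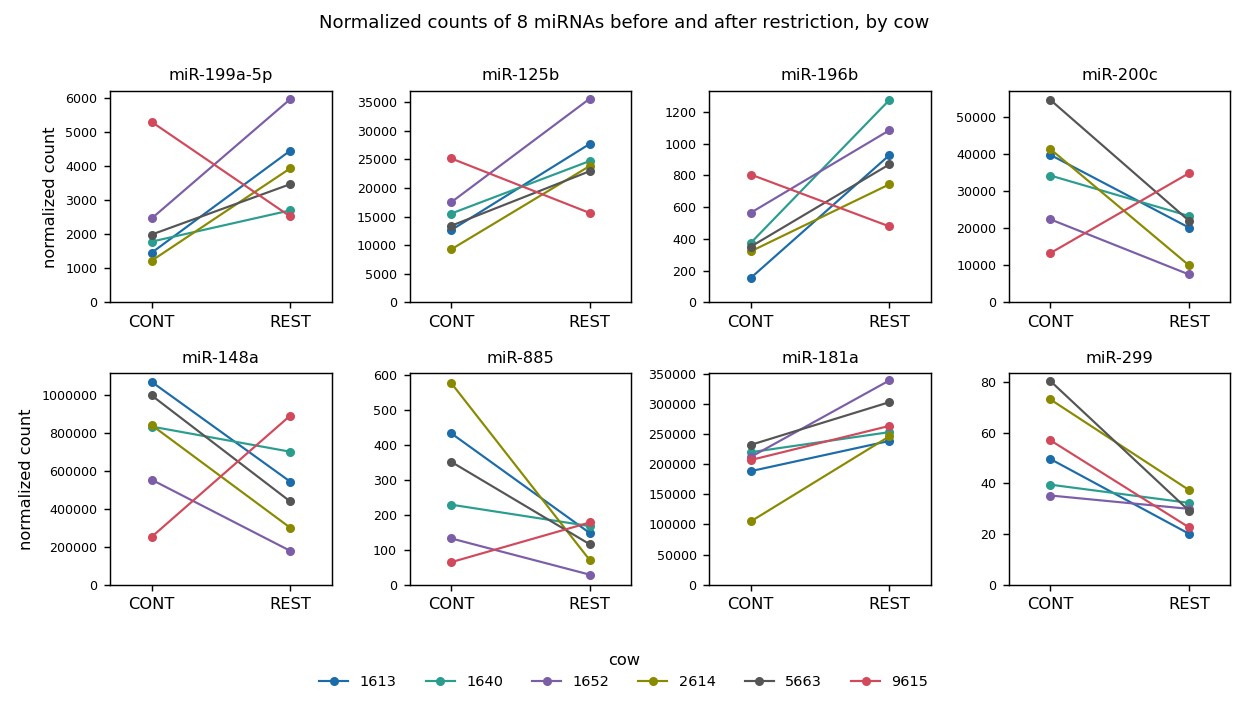
Normalized counts (vertical axes, each starting at 0) of 8 miRNAs in the CONT and REST library of each MONT cow, with a line for each of the 6 cows. The line of cow 9615 runs against the other 5 in 6 panels and with them in the panels of miR-181a and miR-299.

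Without cow 9615, 358 miRNAs passed the filter on low counts and 140 (39.1%) differed between REST and CONT at an adjusted p of at most 0.05 (edgeR, n = 5 cows, with the cow as a block). Of these, 65 (18.2%) were higher and 75 (20.9%) lower in REST, and 178 had an unadjusted p under 0.05. Apart from miR-7863, which had few reads in CONT, the log2 fold changes of the 65 ran from 0.29 to 1.64 (chr21_21957_mature), and those of the 75 from -1.79 to -0.33, and among the 140 a size of 1 was exceeded by 19 upward and 20 downward. The median over all 358 was -0.01. In cow 9615, 14 of the 140 changed in the same direction and the rest in the opposite one, with 63 of the 65 lower and 63 of the 75 higher. The count was 46 without the cow as a block (26 higher and 20 lower), all of them among the 140. With upper quartile scaling, which lowered the median of all miRNAs to -0.27, it was 152, of which 32 were higher and 120 lower, and each of the 140 kept its direction. REST libraries were the deeper ones in these 5 cows, and after all libraries were thinned to the lowest total 132 passed, of which 121 were among the 140.

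The miRNAs that were higher in REST held 5.86% of the normalized counts in CONT and 8.90% in REST on average, and those that were lower held 28.6% in CONT and 16.2% in REST. Without miR-148d, whose reads may be those of miR-148a, the lower ones held 23.7% in CONT and 13.4% in REST. The CONT and REST libraries of the 5 cows did not overlap for 35 miRNAs (9.78%), of which 24 were higher and 11 lower, and 31 of the 35 were among the 140. The families below are described by counts without cow 9615, to be read against the 18.2% of all tested miRNAs that were higher and the 20.9% that were lower, with the values of cow 9615 beside them. With all 6 cows none of their members passed the threshold.

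The miR-200 family, which keeps cells epithelial by repressing the ZEB transcription factors, was lower in REST. All 5 members, miR-200a, miR-200b, miR-200c, miR-141 and miR-429, fell without cow 9615, with a median log2 fold change of -0.78. MiR-200c had normalized counts of 13286, 36924 and 54490 in CONT and of 7547, 21080 and 34763 in REST. The lowest CONT and the highest REST value were those of cow 9615, in which it was higher in REST by 1.39 on the log2 scale. In the other cows it was lower by 0.55 to 2.04, with a log2 fold change of -1.31 ± 0.18 (n = 5, edgeR adjusted p = 0.00119), that is a 2.48-fold lower level, against -0.90 ± 0.43 (adjusted p = 0.292) with all 6 cows. MiR-141, the member with the most reads, had a log2 fold change of -0.59 ± 0.17 without cow 9615 and a change of 0.96 in that cow. The summed level of the family changed by -1.46 to -0.16 per cow on the log2 scale in the 5 cows and by 0.98 in cow 9615. None of miR-182, miR-183 and miR-96, which are also typical of epithelial cells, passed the threshold, and their log2 fold changes lay between 0.00 and 0.08.

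MiR-148a, a miRNA abundant in milk and known to act on DNMT1, had normalized counts of 251513, 836769 and 1068340 in CONT and of 178570, 490975 and 889976 in REST. The lowest CONT value, 251513, and the highest REST value, 889976, were both those of cow 9615. Without this cow, the log2 fold change was -1.13 ± 0.19 (n = 5, edgeR adjusted p = 0.00182), with a change per cow of -1.63 to -0.25, and with all cows it was -0.70 ± 0.45 (adjusted p = 0.382). The counts of miR-148a were 1.32 to 1.46 times those of miR-148d in all 12 libraries, so the 2 could share reads and do not count as separate observations. MiR-148b fell by 0.44, while miR-148c and miR-152, whose counts were nearly the same in each library, had log2 fold changes of -0.20 (adjusted p = 0.209). Of the miR-30 family, which is plentiful in epithelial tissues, miR-30a-5p and miR-30f fell by 0.62 and 0.73 on the log2 scale, and the 4 other members had values between -0.26 and -0.09 that did not pass the threshold. In cow 9615, all 6 were higher in REST, with a median change of 0.38.

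MiR-199a and miR-214, which share a primary transcript expressed in fibroblasts and other mesenchymal cells, were higher in REST. All 5 listed members of the miR-199 and miR-214 group rose without cow 9615, with a median log2 fold change of 1.04. MiR-199a-5p had normalized counts of 1224, 1888 and 5298 in CONT and of 2526, 3701 and 5962 in REST. The highest CONT and the lowest REST value were again those of cow 9615, and without this cow the lowest REST library (2701) was above the highest CONT library (2464). The log2 fold change was 1.18 ± 0.17 (n = 5, edgeR adjusted p = 0.00119), a 2.26-fold higher level, with a change per cow of 0.60 to 1.68 and of -1.07 in cow 9615. With all cows it was 0.84 ± 0.32 (adjusted p = 0.292). MiR-214 rose by 1.24 ± 0.19 and miR-199b by 0.95 ± 0.14. The counts of miR-199a-3p were 1.01 to 1.02 times those of miR-3604 in the 12 libraries, so the rise of miR-3604 is not counted as a separate one.

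Families that lie in clusters with let-7 or in the HOX loci moved with miR-199 and miR-214. Of the 6 members of the miR-99, miR-100 and miR-125 group, known for acting on MTOR and on developmental timing genes, 5 rose and miR-99a-3p (0.12, adjusted p = 0.570) did not pass the threshold. MiR-125b had normalized counts of 9286, 14474 and 25183 in CONT and of 15647, 24292 and 35619 in REST, with cow 9615 highest in CONT and lowest in REST. Its log2 fold change was 0.97 ± 0.12 without cow 9615 (adjusted p = 0.00119) and 0.72 ± 0.23 with it (adjusted p = 0.292). Let-7c, which shares a precursor transcript with miR-99a, rose by 0.53, and let-7i by 0.36, whereas the passenger strand let-7a-3p fell by 0.83 and the other 7 of the 10 members tested did not pass the threshold.

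The miR-10 and miR-196 family lies between HOX genes and acts on them. Of its 4 members, 3 rose without cow 9615. MiR-196b had normalized counts of 154.6, 363 and 805 in CONT and of 479, 898 and 1274 in REST, and without cow 9615 its highest CONT library (565) was below its lowest REST library (743). Its log2 fold change was 1.52 ± 0.20 (n = 5, edgeR adjusted p = 0.00119), a 2.87-fold higher level, and 1.19 ± 0.36 with all 6 cows (adjusted p = 0.292). MiR-196a rose by 0.69 and miR-10a by 0.48, and miR-10b, the second miRNA by count in the gland, had a log2 fold change of 0.10 ± 0.16 (adjusted p = 0.645). MiR-221 and miR-222, a cluster known for repressing the cell cycle inhibitor p27, rose by 0.79 ± 0.13 and 1.02 ± 0.14, and in cow 9615 they were lower in REST by 1.05 and 0.70. MiR-31 rose by 1.03 ± 0.16.

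Members of one family differed in cow 9615. MiR-181c and miR-181d, which form a cluster of their own, rose by 1.13 and 1.253 on the log2 scale without cow 9615 and were lower in REST by 1.49 and 1.67 in cow 9615. MiR-181a and miR-181b, from other loci, had log2 fold changes of 0.55 (adjusted p = 0.0215) and 0.36 (adjusted p = 0.0666) and were higher in REST by 0.35 and 0.28 in cow 9615. The difference between the 2 pairs was not tested.

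**Figure D3:**
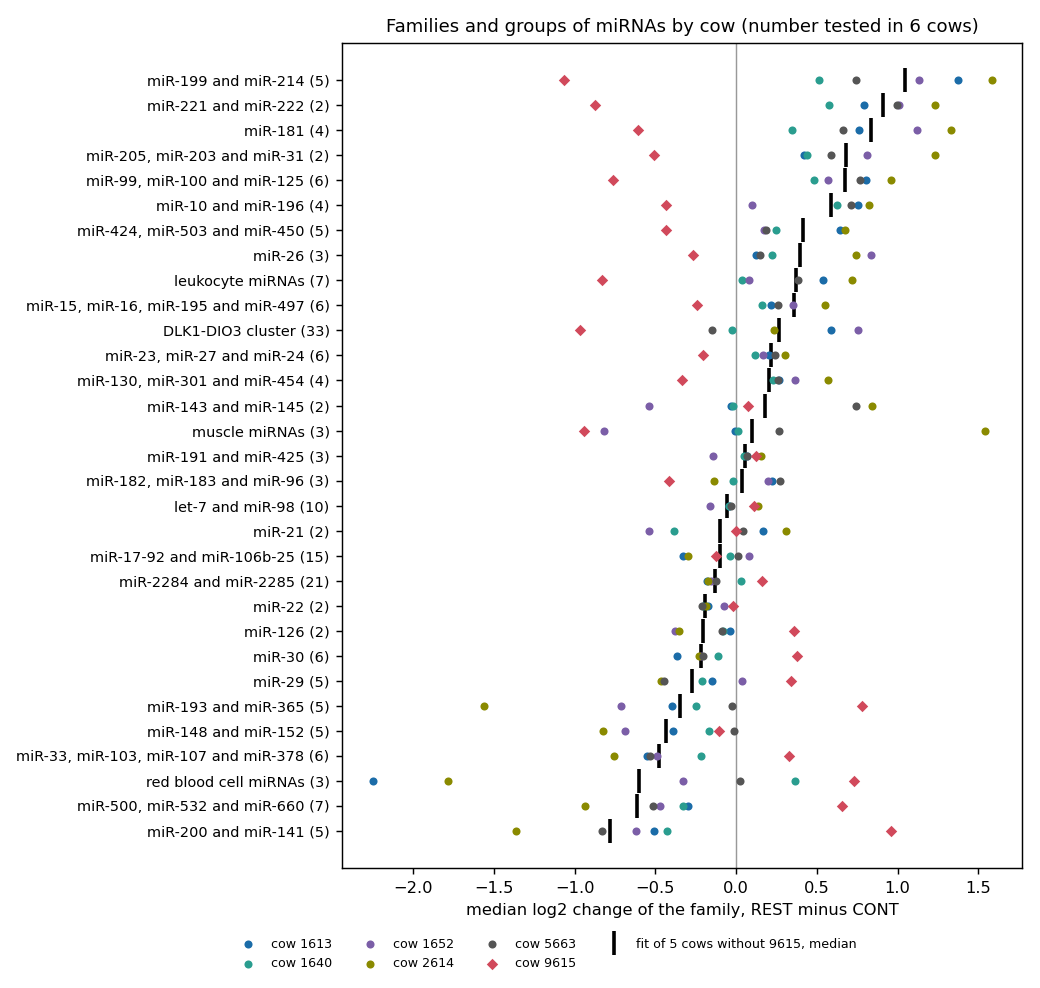
Median log2 change from CONT to REST (horizontal axis) of the tested members of 31 families and groups of miRNAs (rows, with the number tested in 6 cows), as a point for each MONT cow and a black bar for the median of the log2 fold changes fitted without cow 9615. Circles of the other 5 cows lie to the right of 0 for miR-199 and miR-214 and to the left for miR-200 and miR-141, and the red diamond of cow 9615 lies on the other side in both. Medians close to 0 change sign under upper quartile scaling, as those of miR-143 and miR-145, of miR-182, miR-183 and miR-96, of muscle miRNAs, of miR-23, miR-27 and miR-24, of miR-130, miR-301 and miR-454 and of miR-191 and miR-425 do.

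Several miRNAs hosted by genes of lipid and energy metabolism were lower in REST. MiR-33 is encoded within introns of the SREBF genes, miR-103 and miR-107 within those of the pantothenate kinases and miR-378 within PPARGC1B. Of the 6 members tested, 5 fell without cow 9615 (median -0.48), namely miR-33a (-0.64), miR-33b (-0.90), miR-103 (-0.51), miR-107 (-0.37) and miR-378 (-0.45). MiR-378c had a log2 fold change of -0.44 (adjusted p = 0.0967). In the 6 cows together the same 6 had negative log2 fold changes with a median of -0.33, and none passed the threshold. MiR-33b was higher in REST by 1.33 in cow 9615.

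The cluster of miR-500, miR-532 and miR-660, which lies in an intron of CLCN5 in mammals, was lower in REST for 6 of 7 members tested (median -0.61). MiR-660, its member with the most reads, had normalized counts of 15318, 29351 and 33014 in CONT and of 17207, 22203 and 26366 in REST. It fell by 0.50 ± 0.11 without cow 9615 (edgeR adjusted p = 0.00537), and the lowest CONT value was that of cow 9615. Of the 5 members tested of the miR-193 and miR-365 group, the entries miR-193a and miR-193a-3p fell by 1.19 and 1.23. The CONT and REST libraries of miR-193a-3p did not overlap in the 5 cows, with 650 to 1594 in CONT and 295 to 563 in REST.

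Many of the largest changes past the threshold were those of less abundant miRNAs. The highest log2 fold changes of miRNAs past the threshold with the same direction in the 5 cows were, after that of miR-7863, those of an entry named chr21_21957_mature (1.64 ± 0.25), miR-1247-5p (1.63 ± 0.33), miR-2285bm (1.57 ± 0.25), miR-196b, miR-181d, miR-214, miR-708 (1.24 ± 0.22), miR-199a-5p and miR-504 (1.14 ± 0.21). MiR-7863 had normalized counts of 0.987 to 10.1 in the CONT libraries of the 5 cows and of 1.54 to 71.7 in their REST libraries, with 89.2 in CONT and 6.47 in REST in cow 9615. It passed the filter on low counts only without cow 9615, where its CONT counts were low, so its fitted log2 fold change (2.597) is not read as a size. The lowest were those of miR-885 (-1.77 ± 0.30), miR-11981 (-1.72 ± 0.43), miR-10179-5p (-1.70 ± 0.40), miR-6715 (-1.52 ± 0.35), miR-10166-5p (-1.48 ± 0.22), miR-200c, miR-4286 (-1.25 ± 0.23), miR-193a-3p, miR-193a and miR-190a (-1.13 ± 0.27). In cow 9615, each of these 20 changed in the opposite direction. MiR-885 had normalized counts of 64.4, 290.2 and 577 in CONT and of 28.8, 132 and 178 in REST, and cow 9615 had the lowest CONT and the highest REST value.

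The lists of cell type markers overlap these families, so the stromal list and most of the epithelial list are no separate observations. The 4 stromal markers, all of the miR-199 and miR-214 group, had a summed normalized count of 8035 to 15344 in the CONT libraries of the 5 cows and of 17785 to 34048 in their REST libraries, higher in each cow, and went from 27516 to 13746 in cow 9615. The sum of the 9 epithelial markers was lower in REST in each of the 5 cows and went from 211780 to 367034 in cow 9615. In the 5 cows, its CONT values lay between 203561 and 501735 and its REST values between 154833 and 333646. Of these 9, the 5 members of the miR-200 family fell and 4 did not pass the threshold, among them miR-205 (0.33, adjusted p = 0.0668). The part of a changed share of cell types in the differences between REST and CONT was not tested.

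Of the 7 leukocyte miRNAs tested, 4 rose without cow 9615. These were miR-146b (0.82 ± 0.17), an inhibitor of Toll-like receptor signalling, miR-155 (0.57 ± 0.15), which is induced in activated lymphocytes and macrophages, miR-150 (0.51) of mature lymphocytes and miR-142-5p (0.37). MiR-223 fell by 0.63 ± 0.21. The summed count of the list was higher in REST in 5 of 5 cows and went from 86007 to 47841 in cow 9615. Its CONT range of 24701 to 55848 and its REST range of 28690 to 66554 in the 5 cows overlapped.

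The other lists had no member past the threshold without cow 9615. These were smooth muscle (miR-143 and miR-145), endothelium (both arms of miR-126), red blood cells (miR-144, miR-451 and miR-486) and skeletal muscle. MiR-143 had normalized counts of 1899150, 2689110 and 3803780 in CONT and of 2136210, 3294450 and 4295070 in REST, with changes per cow from -0.55 in cow 1652 to 1.18 in cow 2614. Its log2 fold change was 0.24 ± 0.23 (adjusted p = 0.433). In the 5 cows, the sum of the red blood cell markers lay between 23232 and 55762 before and between 12301 and 44875 after restriction, and was lower in REST in cows 1613, 1652 and 2614, with log2 ratios of -1.01, -0.92 and -1.02.

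**Figure D4:**
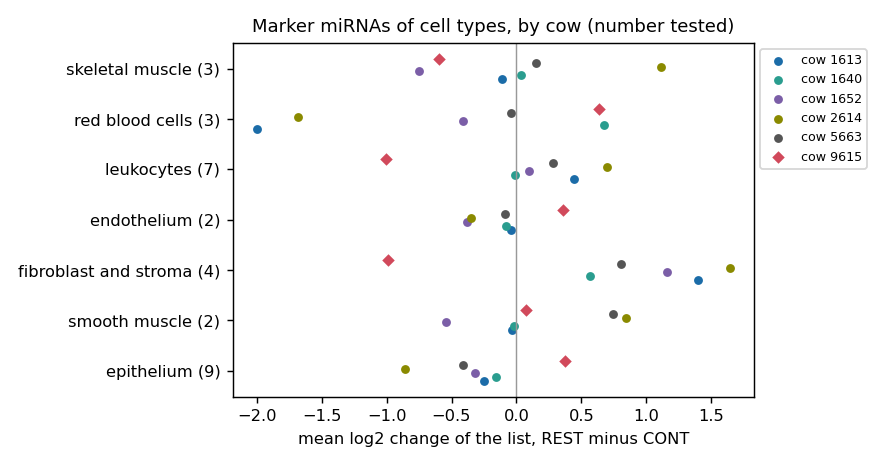
Mean log2 change from CONT to REST (horizontal axis) of the marker miRNAs of 7 cell types (rows, with the number of miRNAs tested), as a point for each MONT cow. The 5 circles of stroma lie between 0.57 and 1.65 and those of epithelium between -0.85 and -0.16, and the diamonds of cow 9615 are at -0.99 and 0.37.

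The large imprinted and ruminant families changed in part. In the DLK1-DIO3 cluster, 33 of 54 listed miRNAs were tested. Without cow 9615, 9 of them rose, among them miR-127 (0.61), miR-379 (1.06) and miR-411a (0.64), and 3 entries fell, namely miR-299, miR-299-2 and miR-411c-3p, so that members of the same cluster moved in both directions. In cow 9615, the median change of the cluster was -0.97, and its library labelled CONT held the highest summed count of the 6 CONT libraries, 236068 against a median of 105474. Of the miR-2284 and miR-2285 families, which expanded in ruminants, 113 were listed and 23 tested, and miR-2285bm rose by 1.57 while miR-2285t fell by 0.67. Of the 15 members of the miR-17-92 and miR-106b-25 clusters, miR-25 rose by 0.29 and miR-18a fell by 0.84. No member of the miR-21, miR-22, miR-26 or miR-23, miR-27 and miR-24 groups passed the threshold, and miR-26a, whose count was 2 times that of miR-26c in every library, had a log2 fold change of 0.39 ± 0.16 (adjusted p = 0.0642).

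The share of miRNAs past the threshold differed between classes of abundance. Without cow 9615, 29.7% of the 148 tested miRNAs with a mean normalized count under 100 passed the threshold, against 45.7% of the 92 between 100 and 1000, 46.7% of the 60 between 1000 and 10000 and 44.8% of the 58 over 10000. The median absolute log2 fold change of those that passed was 0.97 in the lowest and 0.63 in the highest class. Over all tested miRNAs of these classes, passed or not, it was 0.44 and 0.31.

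To compare the breeds, a breed by period term was tested in the 22 libraries of both, with the cow as a block. With all cows, 0 of 388 tested miRNAs (0%) differed between the breeds in their response (edgeR, lowest adjusted p = 0.985), and 5 had an unadjusted p under 0.05. DESeq2 and limma-voom also gave 0, with 7 and 5 at an unadjusted p under 0.05. Without cow 9615, 23 of 388 (5.93%) passed, with the difference of MONT minus HOLS above 0 for 16 and below 0 for 7. The count was 0 without the cow as a block and 15 with DESeq2 size factors in edgeR. It was also 0 when any one of 9 further cows (each of the 5 HOLS cows, or MONT cow 1613, 1652, 2614 or 5663) was left out besides cow 9615, and 46 without cow 1640.

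The direction of most responses was shared by HOLS and the 5 MONT cows. In HOLS, 61 of 374 tested miRNAs (16.3%) passed the threshold with the cow as a block. All 61 were tested in the 5 MONT cows, 46 of them passed there and all 46 had the same direction in both. Over all 358 miRNAs tested in these 5 cows, 39.1% passed. Cow 9615 was set aside for its measured changes, which also ran against HOLS, so this agreement is not independent of that choice. With all 6 MONT cows, none of the 61 passed the threshold. Cow 9615 changed against the HOLS direction for 44 of the 61, and it had the HOLS direction for only 33.0% of all 348 miRNAs tested in both. Of the 27 miRNAs on a list that the study chose in HOLS, 19 passed without cow 9615, against 39.1% of all tested miRNAs. Of these 19, 5 were higher and 14 lower, each in the direction of the HOLS fit. Cow 9615 changed against the HOLS direction for 16 of the 27, and with all 6 cows none of the 27 passed the threshold. That list came from the HOLS libraries and not from the MONT ones, but its agreement with the 5 MONT cows depends on the same choice.

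The size of some responses differed between the breeds once cow 9615 was left out. Cow 9615 was set aside for its measured changes and no HOLS cow was, so the p-values of these differences are not independent of that choice. With all cows, 0 of 388 miRNAs differed between the breeds (edgeR, lowest adjusted p = 0.985). MiR-148a fell by 1.13 in MONT and had a log2 fold change of -0.19 ± 0.10 in HOLS (adjusted p = 0.194), and the difference was -0.87 ± 0.22 (adjusted p = 0.0389). MiR-199a-5p rose by 1.18 in MONT and was at 0.29 ± 0.11 in HOLS (adjusted p = 0.0800), a difference of 0.95 ± 0.20 (adjusted p = 0.0385). MiR-126-3p, a miRNA of endothelial cells, had a log2 fold change of -0.24 in MONT (adjusted p = 0.0661) and rose by 0.31 in HOLS. The difference was -0.48 ± 0.13 (adjusted p = 0.0389). All 5 HOLS cows were above 0, and the 5 MONT cows other than cow 9615 were below 0. In cow 9615 miR-126-3p was higher in REST by 0.36, on the same side as HOLS. With all 6 MONT cows its log2 fold change was -0.13 (edgeR adjusted p = 0.589). MiR-299 fell in both breeds, by 0.84 in MONT and by 1.91 in HOLS, and the difference was 1.14 ± 0.32 (adjusted p = 0.0486). For miR-299, miR-299-2 and miR-495, which did not go against the others in cow 9615, the difference was nearly as large with all cows (1.04, 1.16 and 0.81) but did not pass the threshold.

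**Figure D5:**
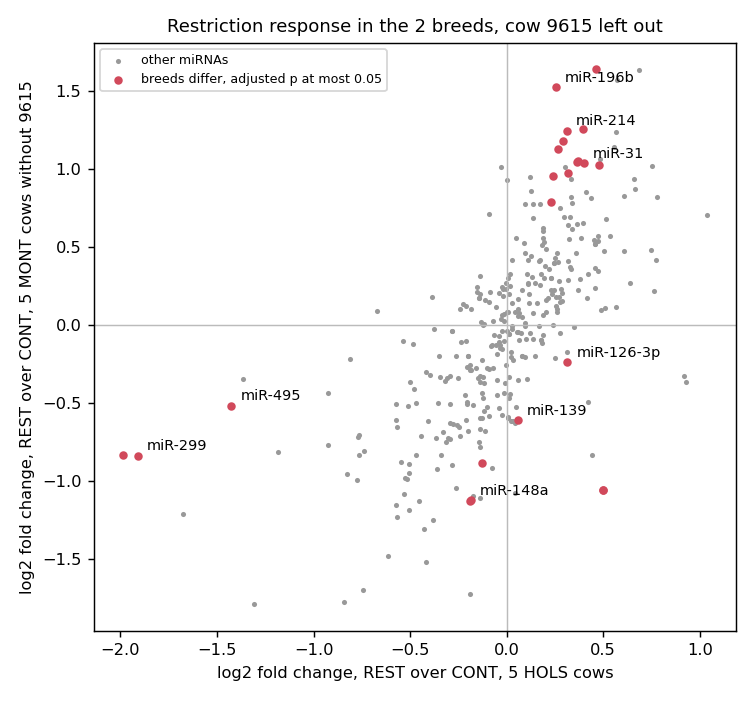
Log2 fold change from CONT to REST in 5 HOLS cows (horizontal axis) and in 5 MONT cows without cow 9615 (vertical axis) of 356 miRNAs tested in both, with the 23 miRNAs whose response differed between the breeds (adjusted p of at most 0.05 for the interaction) in red. MiR-196b and miR-214 lie further from 0 in MONT, miR-299 and miR-495 further from 0 in HOLS.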

How the data were processed

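Small RNA libraries of mammary biopsies were prepared with the TruSeq kit, and per the labels the authors used bcl2fastq 2.17.1.14 and DESeq2 1.18.1. The authors cleaned the reads and quantified miRNAs with ncPRO-seq and miRDeep2. The deposited whole-number counts per miRNA were used. The deposited tables also hold the authors' normalized counts, fold changes and p-values, which were not used. No coordinates or sequences were used here.

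Counts were tested with edgeR 4.0.16 (R 4.3.3): TMM normalization, filterByExpr at a minimum count of 10, a quasi-likelihood F test for period with cow as a block, Benjamini-Hochberg adjustment and a threshold of 0.05. The SE was derived from the F statistic. DESeq2 1.42.0, limma-voom 3.58.1 and other scalings, filters and omissions were alternatives. Normalized counts are counts divided by DESeq2 size factors, and changes per cow use a pseudocount of 1 on the log2 scale. The code was tested on simulated data.

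CONT and REST libraries came from the same cow, which pairs them. The correlation of their deviations from the group means was 0.07 to 0.76 in 5 cows and -0.33 in cow 9615. P-values rest on 1 biopsy per cow and period.

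MiRNAs and lists were chosen with earlier results of these data known. Named were the 10 lowest unadjusted p in each direction with 6 cows, the 10 most abundant, 8 abundant ones of a list the study chose in HOLS, and up to 4 abundant members of each family. The 10 largest changes each way without cow 9615, and all others, were chosen after their values were seen. 7 pairs of entries (14 tested miRNAs) had identical counts.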

Additional observations from a re-analysis of the deposited data

Results flagged for a closer look

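The change of cow 9615 correlated with the mean change of the other 5 cows with r = -0.67 across 349 miRNAs, against 0.57 to 0.71 for each of the others. This value lay further from the rest than the critical value of Dixon's test for 6 samples allows. The 6 correlations share cows, and cow 9615 had already been set aside for the same changes. The result is therefore a description and no separate evidence.

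The same test was applied to the normalized counts of named miRNAs in the 6 libraries of a period, and 22 of 106 groups of values had a library beyond the critical value. Chance gives about 1 in 20 such groups, but 36 of the groups, with 13 of the 22, came from miRNAs named for a large change without cow 9615 after their values were seen, so the count is not set against chance. The library labelled CONT of cow 9615 was the highest of the 6 CONT libraries for miR-204 (8075), miR-411c-3p (156), miR-223 (674), miR-26a (1238330), miR-26c (619161), miR-7863 (89.2), miR-1247-5p (139.9), miR-181d (684), miR-214 (661), miR-708 (163) and miR-199a-5p (5298). Its library labelled REST was the highest for miR-204 (7971) and miR-193a (92.2). Cow 2614 was the lowest in CONT for miR-181a (104902) and miR-27b (223411) and the highest in CONT for miR-18a (434), miR-190a (304.0) and miR-193a (153). Cow 1652 was the highest in REST for miR-7863 (71.7), chr21_21957_mature (7231), miR-181d (876) and miR-708 (211).

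Without cow 9615, the response differed between MONT and HOLS for 23 miRNAs by the interaction of breed and period. The log2 fold change of MONT minus that of HOLS was 0.93 for miR-181c, 0.95 for miR-199a-5p, 0.73 for miR-125b, 0.78 for miR-199b, 1.002 for miR-214, 1.24 for chr21_21957_mature, 0.93 for miR-181d, 1.33 for miR-196b, 0.63 for miR-221, 0.70 for miR-31, 1.23 for miR-299-2, 0.75 for miR-3604, 0.75 for miR-199a-3p, 0.97 for miR-495, 0.61 for miR-222 and 1.14 for miR-299. It was -1.50 for both chr10_11288_mature and chr16_17042_mature, whose counts were identical, -0.87 for miR-148a, -0.86 for miR-148d, -0.48 for miR-126-3p, -0.69 for miR-6522 and -0.60 for miR-139. The fitted changes of 4 of these entries had opposite signs in the breeds, namely both identical entries, miR-126-3p and miR-139. With all cows, none of the 23 passed the threshold.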

How the results depend on the processing

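With all 6 cows, the count of miRNAs past the threshold was 0 in each alternative except DESeq2, which gave 1, lower in REST, and the omission of cow 9615. Leaving out each cow gave 0 to 140, with 0 to 65 higher and 0 to 75 lower. Without cow 9615, the count of 140 fell to 46 with no replicate block (26 higher, 20 lower), and upper quartile scaling gave 32 higher and 120 lower. Leaving out 1 further cow gave 102 to 154, with 44 to 75 higher and 53 to 79 lower. In all alternatives of test, block, scaling, filter and dispersion together, 42 miRNAs passed each time. Thinned libraries were not part of this count. In the fits that left out 1 further cow, 82 of the 140 passed each time. The interaction of breed and period with all cows gave 0 to 23 when each cow was left out. Without cow 9615, it gave 0 with no replicate block, 15 with DESeq2 size factors and 0 to 46 when 1 further cow was left out.

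With all 6 cows, signs changed for the log2 fold change of miR-10b under upper quartile scaling (-0.064) and for the log2 fold change of miR-126-5p without cow 2614 (-0.17 to 0.022 over the 6 omissions). The log2 fold change of miR-21-5p went below 0 with no replicate block (-0.030), library size only (-0.032), upper quartile scaling (-0.17), a filter on the mean (-0.033), thinned libraries (-0.000156) and without cow 1613, 2614 or 5663 (-0.075 to 0.086 over the 6 omissions). Without cow 9615, signs were followed only for named miRNAs that passed the threshold there, and none of these changed sign. Of the others, the median of miR-143 and miR-145 went from 0.18 to -0.079 under upper quartile scaling. The causes were not tested. At the lowest depth, of 6087865 reads, 516 miRNAs had a read, so changes of rare miRNAs may be missed, and 5 or 6 cows limit what a test can find.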

Other observations

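For 23 precursors both arms were tested without cow 9615, and the log2 fold changes of the 2 arms had the same sign for 15 of them. Of 16 entries named by coordinates in the tables, 13 were tested without cow 9615, 2 of them rose and 5 fell, and together they held 0.0347% of the normalized counts. The counts of let-7b and miR-3596, of miR-3065 and miR-338 and of miR-6529a and miR-6529b were identical in every MONT library, and let-7f had 4.10 to 4.84 times the counts of let-7g.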
